A study of Homo sapiens with 11 samples.

Results

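The lysosomal genes described here were 56 listed genes that encode lysosomal hydrolases and their activators (32 genes), lysosomal membrane and cholesterol-handling proteins (10 genes), subunits of the vacuolar proton pump, the V-ATPase (11 genes), and the transcription factors TFEB, TFE3 and MITF (3 genes). They were found by gene symbol in each of 2 tables of RNA-seq abundances from ARP1 cells, an established human myeloma cell line with an IgA kappa phenotype. Of the 56, 55 were among the 14458 genes of the knockdown table and 51 among the 11062 genes of the overexpression table. The genes were chosen with results of both comparisons known, from the same measured values, so the counts, medians and p-values of the members are given as a description and support nothing. The groups were ARP1 cells with an shRNA against PHF19 (n = 3) beside scramble cells (n = 3), and ARP1 cells overexpressing PHF19 from a PCDH plasmid carried by lentivirus (n = 2) beside cells with the empty PCDH vector (n = 3). PHF19 belongs to Polycomb repressive complex 2 as an accessory protein that recognises methylated histone H3, and the series title concerns growth and drug resistance of myeloma cells. Per the labels, virus was packaged in HEK293T cells and PHF19-overexpressing cells were sorted before RNA extraction, while the labels say nothing of a sort of empty vector cells. The labels also do not say how the shRNA was delivered or which hairpin each library carries. Group names follow the sample titles, since the genotype tag names overexpression for the shRNA and scramble samples too. Nothing says that replicates came from separate cultures, so p-values measure only the spread between these libraries.

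Lysosomes are acidic organelles in which hydrolases break down proteins, glycans, lipids and nucleic acids delivered by endocytosis and autophagy. The V-ATPase pumps protons into the lumen, and membrane proteins such as LAMP1 and LAMP2 line the organelle. Transporters in the membrane carry cargo or breakdown products across it. TFEB and its relatives TFE3 and MITF are transcription factors known to bind the E-box-type CLEAR element near the start of many lysosomal genes, and mTORC1 holds them in the cytosol when nutrients are plentiful. Plasma cells and myeloma cells depend on protein turnover because they make large amounts of immunoglobulin.

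Promoter sequence was read from RefSeq windows of the GRCh38.p14 build, which reach from 250 bases before to 50 bases after each annotated start. Of the 56 members, 42 had a window, 62 windows in all. The palindromic core CACGTG was in 14 of the 62 windows (22.6%), against 7.26% of all 35093 windows. Its 8-base form TCACGTGA, which contains that core, was in 8 of the 62 (12.9%), against 0.98% of all windows. A gene can have several windows, and the CLN3 windows overlap and share their motif copies. By gene, the core was in 13 of 42 members, against 2396 of 27305 genes. The 8-base form was in 7 of 42 members, against 321 of 27305 genes. Both motifs read the same on either strand. The windows came with no regard to which start ARP1 cells use, and a match is a description of letters, not a binding site. The members GAA, CTSA, LAMP1, MCOLN1, CLCN7 and ATP6V0D1 are shown with the 100 bases before an annotated start, 5′ to 3′ on the gene's strand, as examples from 3 of the classes that hold the motif, with TCACGTGA or, where only that is present, CACGTG in capitals.
GAA, chr17:80101481-80101580 (plus strand): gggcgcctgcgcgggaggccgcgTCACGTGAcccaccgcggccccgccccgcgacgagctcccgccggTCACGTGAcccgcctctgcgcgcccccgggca
CTSA, chr20:45891235-45891334 (plus strand): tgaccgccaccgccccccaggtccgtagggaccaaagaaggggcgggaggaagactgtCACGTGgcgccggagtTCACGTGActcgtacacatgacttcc
LAMP1, chr13:113297139-113297238 (plus strand): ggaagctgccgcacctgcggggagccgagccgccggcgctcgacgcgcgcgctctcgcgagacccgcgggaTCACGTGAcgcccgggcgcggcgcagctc
MCOLN1, chr19:7522524-7522623 (plus strand): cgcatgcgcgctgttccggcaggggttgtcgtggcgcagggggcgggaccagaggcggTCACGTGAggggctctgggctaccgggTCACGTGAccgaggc
CLCN7, chr16:1475029-1475128 (minus strand): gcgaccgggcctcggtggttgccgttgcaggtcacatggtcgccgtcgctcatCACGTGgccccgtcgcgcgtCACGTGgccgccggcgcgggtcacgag
ATP6V0D1, chr16:67481158-67481257 (minus strand): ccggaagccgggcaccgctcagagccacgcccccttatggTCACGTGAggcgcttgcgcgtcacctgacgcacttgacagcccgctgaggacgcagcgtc

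Hydrolases held the core in 6 of 27 windows (22.2%), membrane proteins in 6 of 19 (31.6%) and V-ATPase subunits in 2 of 9 (22.2%), while none of the 7 windows of the regulators held it. By gene these were 6 of 23 hydrolases, 5 of 9 membrane proteins and 2 of 7 V-ATPase subunits. Of the 9 hydrolases that passed the test in shRNA libraries, described further on, 5 had windows, and GAA was the member of those 5 with the motif.

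PHF19 itself was at 75.2, 103 and 108 FPKM-type units in shRNA libraries, against 113, 152 and 123 in scramble libraries. Its log2 fold change was -0.44 (SE 0.17), with an adjusted p of 0.147 in limma, or 0.0445 with the replicate number as a block. It was at 227 and 213 units in overexpression libraries, against 111, 119 and 115 in empty vector libraries (log2 fold change 0.93, SE 0.09, adjusted p = 0.0438). That call held in 3 of 13 alternative fits, among them the fit without empty vector replicate 5. It was lost when any of the other 4 libraries was left out, with adjusted p-values of 0.149 to 0.264, and in a fit without genes listed at 0. Here and below, values are abundances of FPKM type, normalised for length and depth, in a unit that the files leave unnamed. Fold changes are group differences in the mean of log2(value + 1), and adjusted p-values are Benjamini-Hochberg values over all genes tested in a table, two-sided, with a threshold of 0.05. Of plasma cell markers, 10 of 10 were in the knockdown table, with sums of 727 to 1219 in shRNA libraries and 1259 to 1381 in scramble libraries. The sum was lowest in shRNA replicate 1. CD27, at no more than 0.41 units, was not tested, and none of the other markers passed the test. All of those others had a negative log2 fold change, from -0.03 for PRDM1 to -0.68 for MZB1. Beside this, 4966 of all 10900 genes tested were negative. Among overexpression values, 9 of the 10 were listed, with sums of 1717 and 1763 in overexpression libraries and 868 to 1859 in empty vector libraries. MZB1 and TNFRSF17 were listed at 0 in empty vector replicates 3 and 4, which lowers the sums there. Monocyte and macrophage markers, of interest because such cells are rich in lysosomes, summed to at most 1.41 in shRNA libraries and 2.69 in scramble libraries over the 3 of 5 listed. Among overexpression values LYZ was the 1 of these 5 listed, at 0.396 and 6.17 units in overexpression libraries and at most 0.0572 in empty vector libraries. Epithelial markers, which the HEK293T packaging line could bring in, summed to 5.61 to 7.19 in shRNA libraries and 9.82 to 14.6 in scramble libraries over 2 of 5 listed, and KRT18 was called lower. The part of these markers in the results below was not tested.

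The knockdown comparison asks how these genes differ when PHF19 is targeted. Hydrolase transcripts were higher in shRNA libraries for 9 of 31 tested hydrolases, and none was lower at the threshold. Membrane proteins (0 of 10), V-ATPase subunits (0 of 11) and regulators (0 of 3) had no member past it. Over all 55 members the count was 9 higher and 0 lower, beside 4.24% of all 10900 tested genes called higher and 1.28% called lower. The median log2 fold change was 0.48 over hydrolases, 0.08 over membrane proteins, -0.10 over V-ATPase subunits and 0.13 over regulators, beside 0.03 over all genes tested. In number, 26 of 31 hydrolases, 8 of 10 membrane proteins and 3 of 11 V-ATPase subunits had a positive fold change. The same held for 5934 of all 10900 genes tested. In bulk RNA, a change in the RNA of each cell and a change in the share of cells that make it cannot be told apart.

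**Figure D1:**
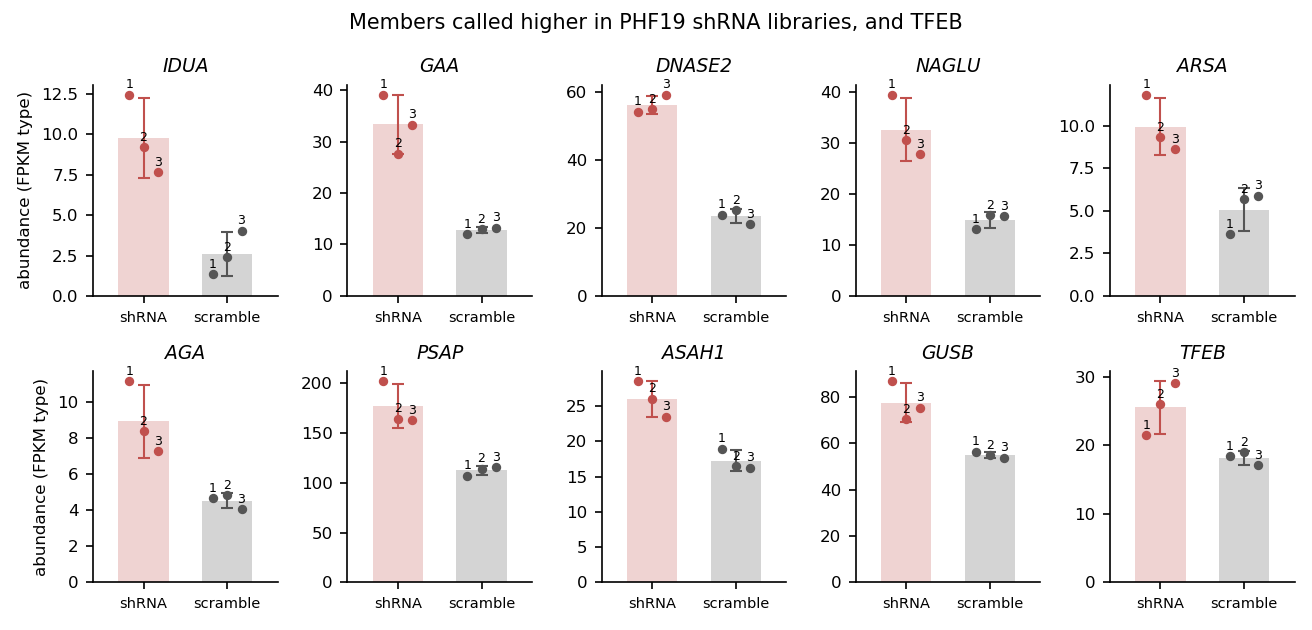
Abundance (FPKM type, linear axis from 0) of the 9 members called higher in shRNA libraries and of TFEB. Points are single libraries with their replicate numbers, bars are means and error bars are SD (n = 3 each). The shRNA libraries of DNASE2 (54.4 to 59.4) lie above its scramble libraries (21.2 to 25.3), and shRNA replicate 1 is the highest library for all of the 9 but DNASE2.

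The widest differences were in enzymes that cut glycogen, DNA and heparan sulfate. IDUA, the alpha-L-iduronidase that removes iduronic acid from heparan and dermatan sulfate, was at 12.5, 9.20 and 7.64 units in shRNA libraries, against 1.35, 2.38 and 4.04 in scramble libraries. The groups did not overlap, and scramble replicate 3 lay nearest to the shRNA libraries (log2 fold change 1.63, SE 0.27, adjusted p = 0.0154). GAA, the acid alpha-glucosidase that degrades glycogen, was at 39.1, 27.7 and 33.3 units in shRNA libraries, against 12.1, 13.0 and 13.3 in scramble libraries. All 3 shRNA libraries were above every scramble library, and the scramble libraries were close to each other (log2 fold change 1.31, SE 0.15, adjusted p = 0.0031). DNASE2, the acid endonuclease that digests DNA in the lysosome, had 54.4, 55.0 and 59.4 units in shRNA libraries, against 23.9, 25.3 and 21.2 in scramble libraries. Its SE was the smallest of these 4 genes (log2 fold change 1.23, SE 0.12, adjusted p = 0.0021). NAGLU, which removes N-acetylglucosamine from heparan sulfate, had 39.6, 30.6 and 27.9 units in shRNA libraries, against 13.1, 15.9 and 15.7 in scramble libraries. Here too no shRNA library overlapped a scramble library (log2 fold change 1.07, SE 0.15, adjusted p = 0.0100).

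Smaller differences past the threshold were seen in enzymes and an activator of sphingolipid breakdown. PSAP encodes the precursor of the saposins, small proteins that present sphingolipids to their hydrolases. It was the most abundant of the 9, at 202, 164 and 163 units in shRNA libraries, against 107, 114 and 116 in scramble libraries (log2 fold change 0.64, SE 0.13, adjusted p = 0.0249). ARSA, the sulfatase that acts on sulfatide, was at 11.8, 9.34 and 8.65 units in shRNA libraries, against 3.64, 5.70 and 5.90 in scramble libraries (log2 fold change 0.86, SE 0.19, adjusted p = 0.0332). In both genes the highest library was shRNA replicate 1. ASAH1, the acid ceramidase, was at 28.5, 26.1 and 23.5 units in shRNA libraries, against 19.0, 16.5 and 16.3 in scramble libraries (log2 fold change 0.57, SE 0.13, adjusted p = 0.0354). The remaining 2 were AGA, which splits the sugar-asparagine bond of glycoproteins, and GUSB, the beta-glucuronidase. AGA was at 11.1, 8.35 and 7.24 units in shRNA libraries, against 4.67, 4.81 and 4.04 in scramble libraries (log2 fold change 0.83, SE 0.17, adjusted p = 0.0274). GUSB was at 86.9, 70.5 and 75.5 units in shRNA libraries, against 56.5, 54.8 and 53.9 in scramble libraries (log2 fold change 0.48, SE 0.12, adjusted p = 0.0477). For all 3 of these genes the lowest shRNA library was above the highest scramble library.

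Grouped by what they cut, a grouping made after the values were seen, the 7 glycosaminoglycan enzymes held 3 of the 9 (IDUA, NAGLU and GUSB) and all 7 had a positive fold change, with a median of 0.51. The 7 sphingolipid enzymes and activators held another 3 (PSAP, ARSA and ASAH1), with a median of 0.57 and GLA as the exception below 0. Of 5 enzymes that act on the glycans of glycoproteins, AGA passed, and the median was 0.37. None of the 8 tested peptidases passed, and their median was 0.14, with fold changes from -0.19 to 0.53. Among these, the cathepsins B, C, D and Z were at high levels in both groups. CTSC, which activates granule serine proteases, was at 174, 237 and 210 units in shRNA libraries, against 208, 239 and 213 in scramble libraries, and the groups overlapped. CTSD, an aspartic protease, was at 90.6, 82.8 and 92.0 units in shRNA libraries, against 67.1, 77.7 and 86.2 in scramble libraries (log2 fold change 0.20, SE 0.13, adjusted p = 0.362). CTSB, a cysteine protease, was at 68.6, 129 and 121 units in shRNA libraries, against 54.1, 114 and 118 in scramble libraries. It was low in replicate 1 of both groups, and its log2 fold change of 0.19 was under its SE of 0.34. The difference between these substrate groups was not tested.

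Several hydrolases missed the threshold although their groups were fully separate. The replicate numbers 1 to 3 occur in both groups and libraries with equal numbers deviated together, so the fit with that number as a block is given where it changes a call. HEXA, the alpha subunit of beta-hexosaminidase, was at 86.8, 73.5 and 66.5 units in shRNA libraries, against 55.5, 53.8 and 51.2 in scramble libraries (log2 fold change 0.48, adjusted p = 0.0572, or 0.0248 with the block). TPP1, a tripeptidyl peptidase, was at 36.5, 27.5 and 26.0 units in shRNA libraries, against 18.9, 19.0 and 23.1 in scramble libraries (log2 fold change 0.53, adjusted p = 0.0758, or 0.0487 with the block). Both were higher in 3 of 3 shRNA libraries than in any scramble library. FUCA1, the alpha-L-fucosidase, and SMPD1, the acid sphingomyelinase, had log2 fold changes of 0.80 (adjusted p = 0.0762) and 0.58 (adjusted p = 0.0689), and with the block 0.0740 and 0.0516. GLA, the alpha-galactosidase that removes galactose from globotriaosylceramide, went the other way. It was at 12.6, 24.1 and 21.4 units in shRNA libraries, against 24.5, 35.4 and 25.5 in scramble libraries. Every shRNA library was below every scramble library, though the gap was narrow (log2 fold change -0.56, SE 0.23, adjusted p = 0.172, or 0.0338 with the block). The remaining hydrolases included NEU1, a sialidase, with means of 48.5 ± 3.09 units in shRNA libraries and 48.6 ± 5.69 in scramble libraries (SD, n = 3 each), and PPT1, a palmitoyl thioesterase, at -0.24 on the log2 scale (adjusted p = 0.315). CTSL was not analysed here.

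With the block, 13 members were called higher and 1 lower, beside 8.2% and 3.68% of all genes tested. The 5 members gained were HEXA, TPP1, CLCN7 and TFEB on the higher side and GLA on the lower. Groups did not overlap for 22 members on the higher side and 5 on the lower side, beside 18.9% and 13% of all genes tested. Of the 22, 18 were hydrolases, 1 was a membrane protein, 2 were V-ATPase subunits and 1 was a regulator. The 5 on the lower side were GLA and 4 V-ATPase subunits.

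**Figure D2:**
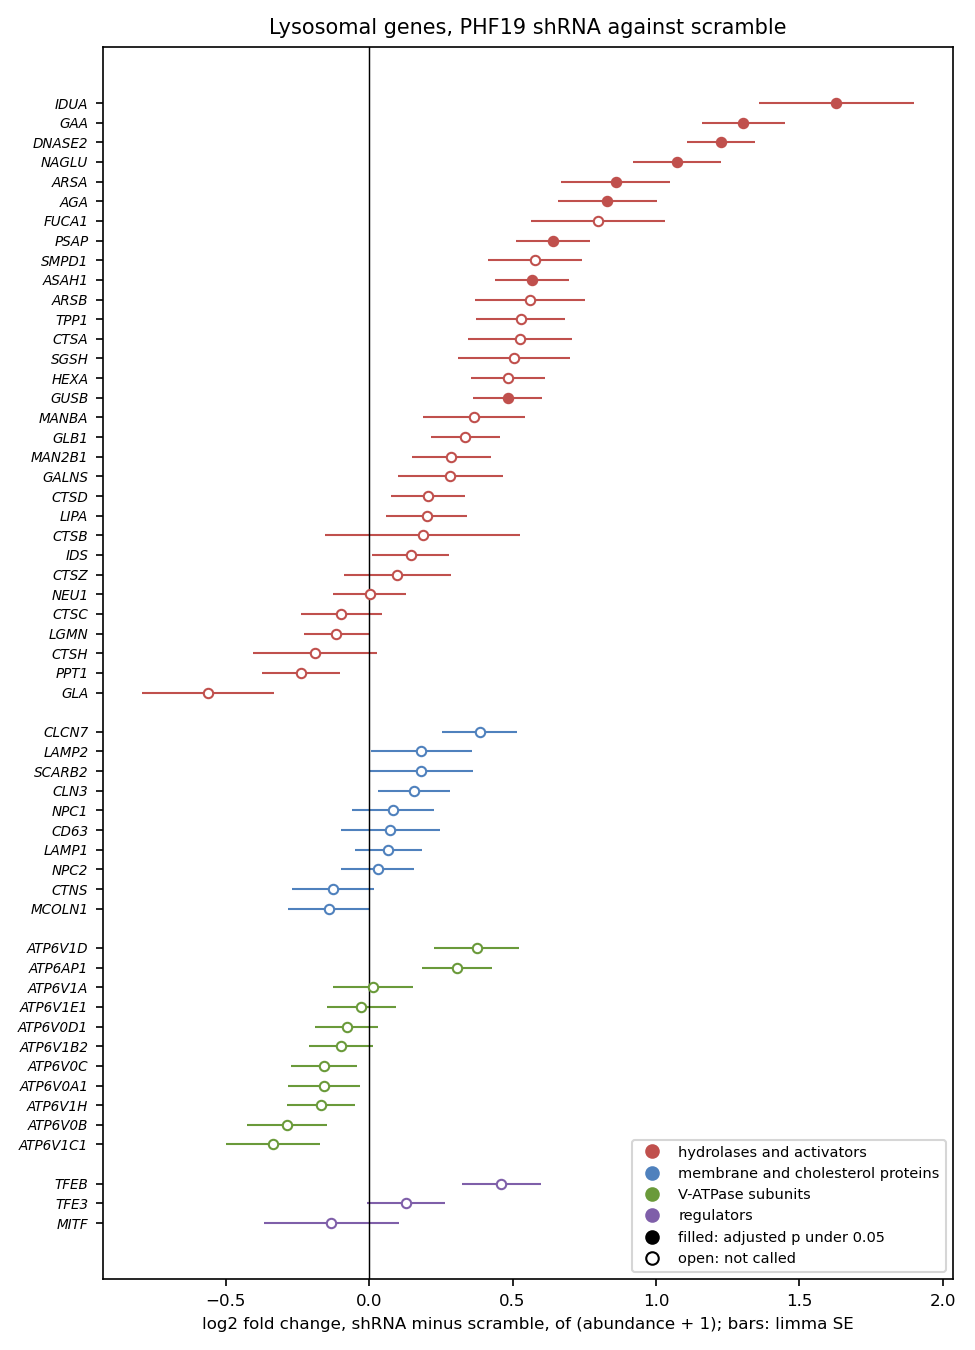
Log2 fold change of 55 members, shRNA minus scramble, by class, with bars of 1 limma SE. Filled points are the 9 members with an adjusted p under 0.05. Hydrolases spread from -0.56 (GLA) to 1.63 (IDUA), and V-ATPase subunits from -0.34 to 0.38.

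Membrane proteins were close to their scramble levels. LAMP1, a heavily glycosylated coat protein of the lysosomal membrane, was at 150, 132 and 133 units in shRNA libraries, against 138, 131 and 128 in scramble libraries (log2 fold change 0.07, SE 0.12). CD63, a tetraspanin of late endosomes and the most abundant member in scramble libraries, was at 464, 325 and 305 units in shRNA libraries, against 363, 355 and 307 in scramble libraries. shRNA replicate 1 was the highest of the 6 and the groups overlapped. LAMP2, which also serves chaperone-mediated autophagy, and SCARB2, an integral membrane protein of lysosomes, both had log2 fold changes of 0.18 (SE 0.18, adjusted p = 0.565 and 0.581). CLCN7, the lysosomal chloride-proton exchanger, was at 35.0, 34.0 and 38.7 units in shRNA libraries, against 24.4, 26.2 and 31.5 in scramble libraries. Its groups did not overlap (log2 fold change 0.38, SE 0.13, adjusted p = 0.114, or 0.0446 with the block). The cholesterol transporters NPC1 and NPC2 had log2 fold changes of 0.08 and 0.03, and the calcium channel MCOLN1 and the cystine transporter CTNS had -0.14 and -0.13, each smaller than its SE of 0.13 to 0.14. At an unadjusted p under 0.05, 1 of the 10 membrane proteins and 2 of the 11 V-ATPase subunits passed, beside 2626 of all 10900 genes tested, and limma without trend and robust variances also called none of them.

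Of 11 V-ATPase genes, 8 had a negative fold change, beside 4966 of all 10900 genes tested. ATP6V0C encodes the proteolipid of the proton-conducting ring and was the most abundant subunit. It was at 202, 189 and 199 units in shRNA libraries, against 225, 210 and 224 in scramble libraries, which did not overlap (log2 fold change -0.16, SE 0.11, adjusted p = 0.436). ATP6V0B, another ring subunit, was at 90.5, 115 and 114 units in shRNA libraries, against 133, 141 and 116 in scramble libraries (log2 fold change -0.29, SE 0.14, adjusted p = 0.238). ATP6V1C1, a subunit of the cytosolic sector that helps join it to the membrane sector, had the largest negative value, -0.34 (SE 0.16, adjusted p = 0.243), and its groups overlapped. On the positive side stood ATP6V1D, a subunit of the central rotor, and the accessory protein ATP6AP1. ATP6V1D was at 25.9, 22.1 and 19.5 units in shRNA libraries, against 18.2, 18.3 and 14.7 in scramble libraries (log2 fold change 0.38, SE 0.15, adjusted p = 0.157). ATP6AP1 was at 88.1, 72.3 and 75.0 units in shRNA libraries, against 59.4, 63.3 and 66.6 in scramble libraries (log2 fold change 0.31, SE 0.12, adjusted p = 0.162). The catalytic subunit ATP6V1A averaged 21.9 ± 2.64 units in shRNA libraries and 21.7 ± 2.73 in scramble libraries (SD, n = 3 each).

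TFEB, the best-known activator of lysosomal genes, was at 21.5, 26.0 and 29.1 units in shRNA libraries, against 18.4, 19.0 and 17.1 in scramble libraries. No shRNA library overlapped a scramble library (log2 fold change 0.46, SE 0.14, adjusted p = 0.0826, or 0.0465 with the block). TFEB was lowest in replicate 1 among shRNA libraries, and without that library its adjusted p was 0.0268. TFE3 was at 30.7, 34.1 and 39.8 units in shRNA libraries, against 29.8, 30.2 and 35.2 in scramble libraries (log2 fold change 0.13, SE 0.14). MITF was low throughout, at 1.02, 2.33 and 2.53 units in shRNA libraries, against 2.17, 1.62 and 2.77 in scramble libraries (log2 fold change -0.13, SE 0.24). These are transcript levels, and the location of the proteins in the cell was not measured.

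The position of the hydrolases among the 3 shRNA libraries depended on the measure. Relative to the scramble mean, the median log2 difference over 31 hydrolases was 0.65, 0.35 and 0.34 in shRNA replicates 1, 2 and 3, against -0.09, 0.02 and 0.07 in the scramble replicates. The summed hydrolase level was 1439, 1452 and 1425 units in shRNA replicates 1, 2 and 3, against 1065, 1238 and 1221 in the scramble replicates, so by the sum, which abundant genes dominate, the shRNA libraries were close to each other. As a share of all listed abundance it was 0.274%, 0.282% and 0.284% in shRNA libraries, against 0.204%, 0.235% and 0.260% in scramble libraries. The median over V-ATPase subunits was -0.14, -0.08 and -0.12 in shRNA libraries, against -0.04, -0.02 and 0.06 in scramble libraries. shRNA replicate 1 also had the lowest PHF19 and the lowest sum of plasma cell markers. Whether these played a part in the hydrolase values was not tested. Without it the hydrolase median was 0.33, and 7 hydrolases were called.

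**Figure D3:**
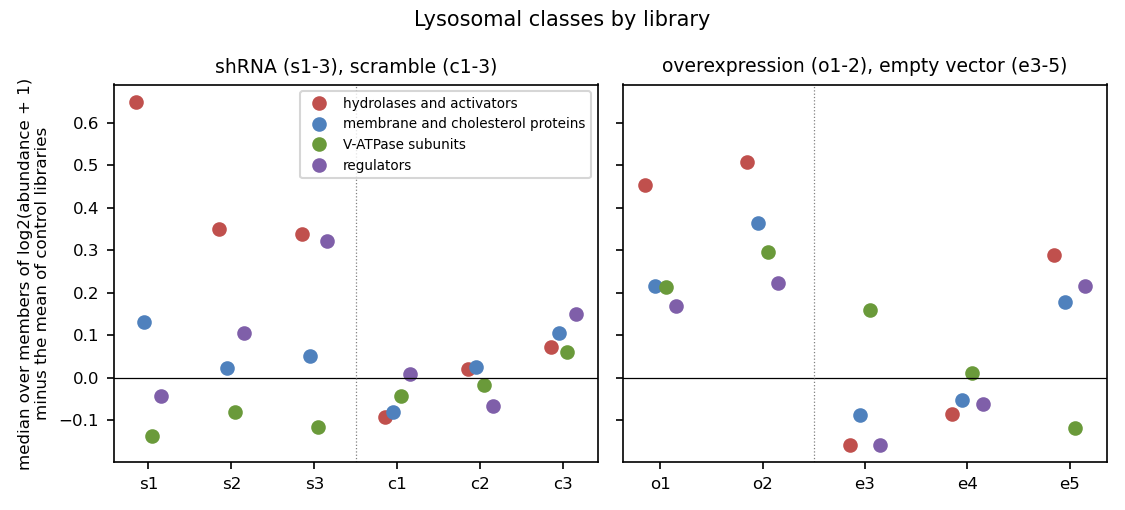
Median over the members of each class of the log2(abundance + 1) difference from the control mean, 1 point per class and library (s, shRNA; c, scramble; o, overexpression; e, empty vector, with replicate numbers). Hydrolases are highest in shRNA replicate 1 (0.65), and empty vector replicate 5 (0.29) stands nearer to the overexpression libraries (0.45 and 0.51) than the other empty vector libraries do.

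The calls rest on few libraries. DNASE2 and GAA were called in all 15 alternative fits and NAGLU in 14, with IDUA in 13, PSAP in 10, AGA in 9, ARSA in 8, ASAH1 in 7 and GUSB in 6. Without scramble replicate 1, 2 or 3, 2, 3 or 4 members were called higher, beside 50, 57 or 143 of all genes tested. Without shRNA replicate 1, 2 or 3, the counts were 8, 4 or 5, beside 500, 228 or 154 of all genes tested. The 8 without shRNA replicate 1 were 7 of the 9 hydrolases, with ARSA (adjusted p = 0.0523) and GUSB (0.0568) lost, and TFEB. Quantile normalisation called 377 genes higher and 206 lower over the whole table, in place of 462 and 139, and kept the hydrolase median at 0.42 and the V-ATPase median at -0.09.

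Further genes of the pathway, listed by function and not among the 56, were read in the same fit. The list of other lysosomal hydrolases also holds HGSNAT, which is an acetyltransferase. Of its 26 genes tested, 3 passed as higher and none as lower, with a median log2 fold change of 0.26. Beside this, 4.24% of all genes tested were called higher and 1.28% lower. HGSNAT, which acetylates heparan sulfate before NAGLU can act, was at 16.0, 8.57 and 8.70 units in shRNA libraries, against 4.49, 4.49 and 4.81 in scramble libraries (log2 fold change 1.06, SE 0.22, adjusted p = 0.0267). MAN2B2, an alpha-mannosidase, was at 18.8, 14.99 and 13.9 units in shRNA libraries, against 7, 7.69 and 8.38 in scramble libraries (log2 fold change 0.95, SE 0.15, adjusted p = 0.0143). ARSG, a sulfatase of heparan sulfate, was at 4.84, 2.33 and 2.39 units in shRNA libraries, against 1.14, 0.99 and 0.61 in scramble libraries (log2 fold change 1.09, SE 0.23, adjusted p = 0.0305). With the block PLBD2 and DPP7, the first a phospholipase B-like protein and the other a dipeptidyl peptidase, were called as well (adjusted p = 0.0229 and 0.0448).

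Of 27 other membrane proteins tested, 3 were called higher and 2 lower, beside 4.24% and 1.28% of all genes tested. The median of these membrane proteins was 0.08. TMEM175, a lysosomal potassium and proton channel, was at 37.7, 32.1 and 32.2 units in shRNA libraries, against 13.1, 15.6 and 21.5 in scramble libraries (log2 fold change 1.005, SE 0.17, adjusted p = 0.0169). ABCA2, a lipid transporter, and TMEM9, a lysosomal membrane protein, had log2 fold changes of 0.91 (adjusted p = 0.0274) and 0.68 (adjusted p = 0.0178). CD68, a glycoprotein best known from macrophages, was at 1.46, 1.86 and 1.5 units in shRNA libraries, against 3.13, 3.83 and 3.22 in scramble libraries (log2 fold change -0.75, SE 0.15, adjusted p = 0.0267). LAPTM4B, a late endosomal membrane protein, was also lower (log2 fold change -0.77, adjusted p = 0.0468) at levels under 4 units. Among 15 genes of mannose 6-phosphate tagging, sorting and sulfatase activation, 2 passed as higher, beside 4.24% of all genes tested. SUMF1, which activates all sulfatases, was at 8.14, 5.36 and 6.05 units in shRNA libraries, against 3.03, 3.18 and 1.91 in scramble libraries (log2 fold change 1.02, SE 0.20, adjusted p = 0.0227). GNPTG, a subunit of the enzyme that builds the mannose 6-phosphate tag, was at 41.8, 29.7 and 31.7 units in shRNA libraries, against 21.8, 19.1 and 19.5 in scramble libraries (log2 fold change 0.73, SE 0.15, adjusted p = 0.0258).

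None of 17 other V-ATPase genes and none of 18 other regulators passed, in limma with or without trend and robust variances. Of these 17 V-ATPase genes, 10 had a positive fold change, with a median of 0.02, unlike the 11 members. Of the 18 regulators, 12 were positive, with a median of 0.08, beside 5934 of all 10900 genes tested. Of all 10900 genes tested, 4.24% were called higher and 1.28% lower. In limma, 1 and 0 of these V-ATPase genes and regulators had an unadjusted p under 0.05, beside 2626 of all 10900 genes. The V-ATPase genes with the largest values were ATP6V1C2 (log2 fold change -0.58, adjusted p = 0.0947, or 0.0238 with the block) and TCIRG1 (0.42, adjusted p = 0.213). Of the regulators these were LAMTOR2, a part of the Ragulator complex that docks mTORC1 on lysosomes (0.28, adjusted p = 0.375), and RPTOR, the raptor subunit of mTORC1 (0.26, adjusted p = 0.373).

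The overexpression comparison asks the same with PHF19 added. Of the 56 members, 51 were in this table and 49 could be tested, and none was called in either direction, beside 0.613% of all 10279 tested genes called higher and 0.302% called lower. At an unadjusted p under 0.05 there were 12 of the 49 members, beside 1185 of all 10279 genes tested, and limma without trend and robust variances also called none. The median log2 fold change was 0.32 over members and 0.09 over all genes tested, or 0.16 over members and -0.04 over all genes with quantile normalisation. By class the median was 0.55 over 27 hydrolases, 0.32 over 9 membrane proteins, 0.25 over 10 V-ATPase subunits and 0.20 over the 3 regulators, or 0.39, 0.16, 0.11 and 0.05 in that order with quantile normalisation. Groups did not overlap for 22 members on the higher side and 0 on the lower, beside 23.1% and 11.1% of all genes tested. GLB1, NEU1, CTSL, NPC2 and ATP6V0A1 were not analysed here.

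Many genes of this table are listed at exactly 0 in single libraries, including genes that stand at high values in the others. Of the members, 3 and 4 were at 0 in the overexpression libraries, and 2, 4 and 5 in the empty vector libraries. CTSC was listed at 0 in both overexpression libraries and in 2 empty vector libraries, and at 288 units in empty vector replicate 3. CTSD was at 0 in all 5 libraries, and the authors' deposited table nevertheless gives it a p-value of 9.71e-06. CLCN7 was at 21.2 and 23.0 units in overexpression libraries, against 16.5, 22.2 and 0 in empty vector libraries, and GALNS, a sulfatase of keratan sulfate, at 13.6 and 9.19 against 9.59, 8.85 and 0. The ring subunit ATP6V0B was at 126 and 0 units in overexpression libraries, against 0, 0 and 96.4 in empty vector libraries, and ATP6V0C at 139 and 0 against 101, 0 and 96.4. MCOLN1 was at 0 and 13.7 units in overexpression libraries, against 9.38, 9.19 and 0 in empty vector libraries. No fold is given for these genes. Of the genes outside the 56, SPNS1, a lysosomal lysophospholipid transporter, was at 19.9 and 19.6 units in overexpression libraries and listed at 0 in all 3 empty vector libraries. A separate fit on the 8665 genes with no 0 in any library called no gene of the whole table, PHF19 included.

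**Figure D4:**
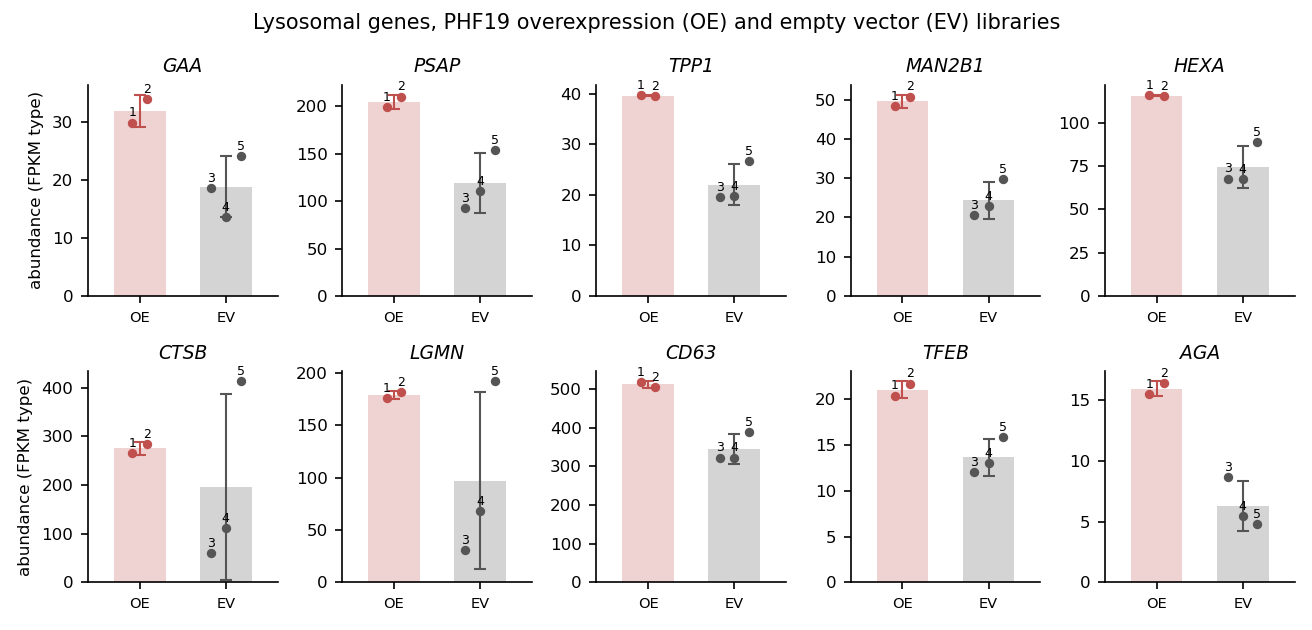
Abundance (FPKM type, linear axis from 0) of 10 members in overexpression (OE, n = 2) and empty vector (EV, n = 3) libraries. Points are single libraries with their replicate numbers, bars are means and error bars are SD. MAN2B1 is at 48.4 and 50.8 in OE libraries, against 20.6 to 29.7 in EV libraries, while CTSB and LGMN are highest in EV replicate 5.

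Of the 26 tested hydrolases with no 0 in any library, 20 had a positive fold change, beside 5144 of all 8665 genes with no 0. Both overexpression libraries were above every empty vector library for 14 of the 26, beside the 23.1% of all genes tested given above. None of the 26 was called. MAN2B1, the acid alpha-mannosidase, was at 48.4 and 50.8 units in overexpression libraries, against 20.6, 22.8 and 29.7 in empty vector libraries (log2 fold change 1.01, SE 0.19, adjusted p = 0.228). AGA was at 15.5 and 16.4 units in overexpression libraries, against 8.67, 5.47 and 4.80 in empty vector libraries (log2 fold change 1.25, SE 0.26, adjusted p = 0.289). TPP1 was at 39.8 and 39.5 units in overexpression libraries, against 19.5, 19.8 and 26.6 in empty vector libraries (log2 fold change 0.84, SE 0.18, adjusted p = 0.288). In each of these 3 genes both overexpression libraries were above every empty vector library. HEXA was at 116 units in both overexpression libraries, against 67.9, 67.4 and 88.8 in empty vector libraries (log2 fold change 0.64, SE 0.16, adjusted p = 0.329). PSAP was at 199 and 210 units in overexpression libraries, against 92.5, 111 and 154 in empty vector libraries (log2 fold change 0.81, SE 0.24, adjusted p = 0.381). Empty vector replicate 5 was the highest control in TPP1, HEXA, PSAP and MAN2B1, but the lowest in AGA.

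Empty vector replicate 5 stood with or above the overexpression libraries for several peptidases and glycan enzymes. LGMN, the asparaginyl endopeptidase, was at 176 and 181 units in overexpression libraries, against 31.1, 67.8 and 192 in empty vector libraries, and its log2 fold change was 1.25 with a large SE of 0.83 (adjusted p = 0.602). CTSB was at 265 and 285 units in overexpression libraries, against 60.4, 111 and 413 in empty vector libraries (log2 fold change 0.96, SE 0.90, adjusted p = 0.719). SGSH, a sulfamidase of heparan sulfate, was at 15.1 and 15.3 units in overexpression libraries, against 12.0, 11.8 and 26.2 in empty vector libraries. Over the 26 hydrolases with no 0, the median log2 difference from the empty vector mean was 0.45 and 0.51 in overexpression libraries, against -0.16, -0.08 and 0.29 in empty vector libraries. Their summed level was 1435 and 1493 units in overexpression libraries, against 734, 870 and 1443 in empty vector libraries. As a share of all listed abundance it was 0.288% and 0.297%, against 0.172%, 0.204% and 0.339% in empty vector libraries. Empty vector replicate 5 was thus highest by share. All listed abundance summed to 498485 and 502349 units in overexpression libraries, against 425155 to 426112 in empty vector libraries. Without empty vector replicate 5, 4 members were called higher, beside 2.56% of the 10063 genes then tested. These 4, singled out after their values were seen, were TPP1 (adjusted p = 0.0217), HEXA (0.0295), MAN2B1 (0.0296) and CD63 (0.0378), and over the other alternatives none was called. The empty vector control then has 2 libraries.

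Membrane proteins, proton pump and regulators had smaller values in this comparison. CD63 was at 518 and 506 units in overexpression libraries, against 323, 323 and 389 in empty vector libraries, without overlap (log2 fold change 0.57, SE 0.12, adjusted p = 0.295). SCARB2 was at 38.0 and 36.4 units in overexpression libraries, against 21.0, 27.2 and 37.7 in empty vector libraries, with replicate 5 between both overexpression libraries (log2 fold change 0.40, SE 0.27, adjusted p = 0.600). ATP6AP1 was at 68.0 and 72.0 units in overexpression libraries, against 43.1, 49.0 and 75.8 in empty vector libraries (log2 fold change 0.36, SE 0.28, adjusted p = 0.652). TFEB was at 20.4 and 21.7 units in overexpression libraries, against 12.0, 13.0 and 15.9 in empty vector libraries. Its groups did not overlap, as in the knockdown arm, where shRNA libraries were also the higher ones (log2 fold change 0.60, SE 0.16, adjusted p = 0.340). For TFE3 the log2 fold change was 0.20 (SE 0.11, adjusted p = 0.560) and for MITF -0.00 (SE 0.25, adjusted p = 0.997). Whether the sort of PHF19-overexpressing cells, or the library letters in the sample descriptions that differ between these groups, played a part cannot be told apart from PHF19.

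In the further lists of this table, SPNS1 was the only one of 25 other membrane proteins called, with the zeros given above. Of the other hydrolase list, HGSNAT included, 20 genes were tested with no 0 in any library. All 20 had a positive fold change, with a median of 0.28, and none was called. Beside this, 5144 of all 8665 genes with no 0 had a positive fold change, with a median of 0.07. Over all 24 tested genes of that hydrolase list, 21 were positive, with a median of 0.25. With quantile normalisation 18 of the 24 were positive, with a median of 0.12, beside a median of -0.04 over all genes. None of 15 other V-ATPase genes, 18 other regulators or 14 sorting genes was called. Of all 10279 genes tested, 0.613% were called higher and 0.302% lower. Unadjusted limma p-values under 0.05 numbered 1, 0 and 4 in those lists, beside 1185 of all 10279 genes tested. Limma without trend and robust variances also called none of the genes in those lists.

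Side by side, 44 members had a fold change in each comparison with no 0 in either table, although the comparisons have different controls and separately normalised tables. The fold change was above 0 in both comparisons for 29 members, in shRNA libraries only for 4, in overexpression libraries only for 7 and in neither for 4. Of all 44 members, 36 were above 0 in overexpression libraries, beside 5144 of the 8665 genes with no 0 there. In shRNA libraries 5934 of all 10900 genes tested were above 0. No joint count or correlation over all genes is given here, so whether the members differ from other genes in this cannot be told. Of the 9 hydrolases called higher in shRNA libraries, 8 were also above 0 in overexpression libraries, from 0.19 for ASAH1 to 1.25 for AGA. NAGLU was the exception, at 1.07 in shRNA libraries and -0.02 in overexpression libraries, where it had 15.6 and 17.7 units, against 14.5, 15.9 and 20.7 in empty vector libraries. For the others, GAA had 1.31 in shRNA libraries and 0.76 in overexpression libraries (adjusted p = 0.414), DNASE2 1.23 and 0.55 (adjusted p = 0.566), and IDUA 1.63 and 0.56 (adjusted p = 0.532). GAA was at 30.0 and 34.0 units in overexpression libraries, against 18.7, 13.7 and 24.2 in empty vector libraries, which did not overlap. Across these 44 members the fold changes had a Pearson correlation of 0.35, given as a description because members share libraries within each comparison. Within classes the correlation was 0.22 over 26 hydrolases, 0.40 over 7 membrane proteins and 0.23 over 8 V-ATPase subunits. Over the 9 hydrolases called higher in shRNA libraries it was -0.05. V-ATPase subunits had a positive value in both for 3 of 8, and in overexpression libraries only for 4 of 8. Fold changes of opposite sign were seen for 11 of the 44. The difference between the comparisons was not tested.

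**Figure D5:**
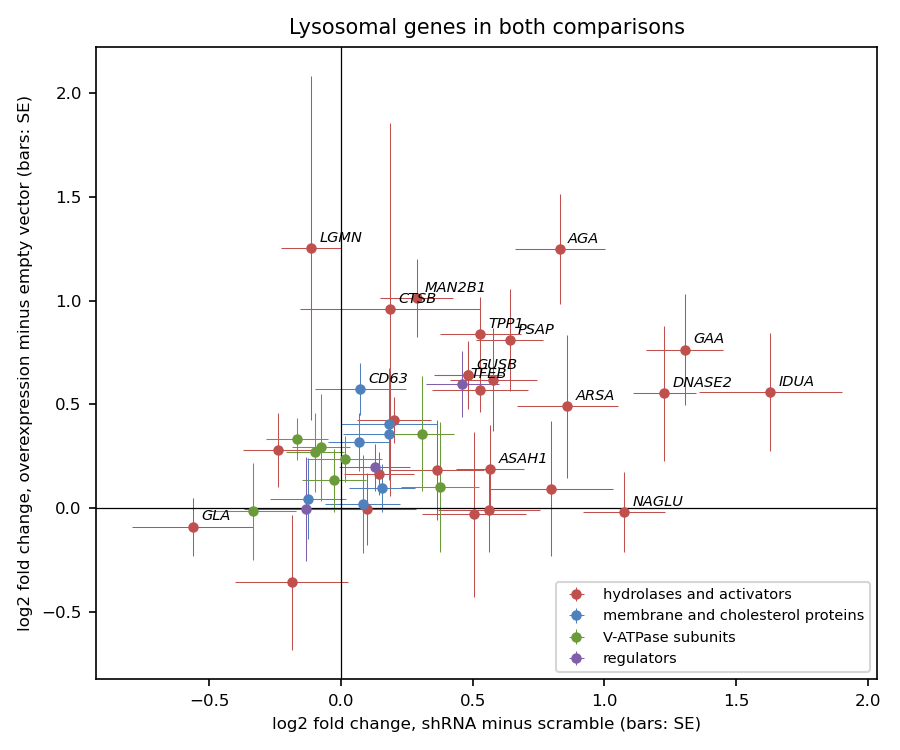
Log2 fold change of 44 members in the shRNA comparison (horizontal axis, minus scramble) and in the overexpression comparison (vertical axis, minus empty vector), with bars of 1 SE. Points in the upper right corner are the 29 members above 0 in both.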

How the data were processed

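RNA-seq was measured in 11 ARP1 libraries, with groups taken from sample titles. The authors deposited 2 tables of abundances, treated here as FPKM. Their headers leave the unit unnamed, and the values do not tell FPKM from RPKM or TPM. Per the submitters' processing notes, TopHat and the hg19 build were used. No source used here states the quantifier, annotation or strandedness. Per the file headers, both tables also hold the authors' p-values, from a test that is not named. Knockdown values were rounded to 2 decimals by the authors, and 24 symbols there had turned into dates and were kept unmatched. Read depth is unknown, low values show no steps of single reads, and so no counting interval or floor was computed.

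Each arm was tested within its own table. A gene was tested where its value reached 1 in as many libraries as the smaller group has, or in more, as log2(value + 1), with limma-trend and robust variances (limma 3.58.1, R 4.3.3), and adjusted p-values cover all genes tested. The fit was run on simulated data with known changes, drawn with independent noise for each library and without genes at 0. It therefore does not cover libraries that deviate together or values of 0. Libraries with equal numbers in both knockdown groups deviated together across genes (correlations 0.341, 0.270 and 0.273, against -0.277 to 0.0936 for the other pairs), so the numbers were taken to pair them. This pairing comes from the data and from no label. The alternatives were plain limma without trend or robust variances, pseudocounts of 0.1 and 0.5, a filter at 5 or none, quantile and median-of-ratios scaling, genes at 0 left out, each library left out, and the replicate number as a block.

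The members, the further lists and the tests were chosen with earlier results of these data known. Named genes were members past the threshold, the 3 largest absolute fold changes of each class, the 3 regulators, PHF19, and in each further list the members past the threshold or else the 2 largest. Other members are named to show their class or because an alternative changed their call, chosen after their values were seen. Plots used matplotlib 3.10.9 in Python 3.11.15, and tables used pandas 2.3.3 and numpy 2.4.6. A gene of the further hydrolase list is not reported here.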

Additional observations from a re-analysis of the deposited data

How the results depend on the processing

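The count of members called higher in shRNA libraries was 9, against 5 with no filter, where more genes enter the adjustment, and 2 to 8 when 1 library was left out. The lowest counts came without scramble replicate 1 (2), 2 (3) or 3 (4), and without shRNA replicate 2 the count was 4, with 5 without shRNA replicate 3. Members called lower were 0, and 1 with the replicate block. The other counts called higher were 7 to 9, or 13 with the block. In the overexpression comparison the members' median log2 fold change of 0.32 became 0.16 with quantile normalisation, which moved the median of all genes to -0.04. No member was called higher there, and 0 to 4 when 1 library was left out, with the 4 arising without empty vector replicate 5. The cause of these changes was not tested beyond what the settings themselves do. No member called in the reported fit changed sign under any of these alternatives. No paired analysis was possible for overexpression because the replicate numbers 1 and 2 are not shared with the empty vector numbers 3, 4 and 5. With 2 or 3 libraries in a group and unknown read depth, a member short of the threshold is not shown to be unaltered.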
